A study of Mus musculus with 6 samples.

Results

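Potassium channel subunits were followed in hippocampal RNA of mice that lack inhibitor-1 and of wild-type mice. The members were 47 genes for neuronal and glial potassium channel pore and auxiliary subunits, and their probe sets were those that the platform annotation assigns to exactly 1 of these symbols. That gave 110 of the 45101 probe sets on the array, covering 45 of the 47 genes. No probe set was assigned to Kcnb2 or Kcnk9 alone, so these were not analysed here. Of the 110 probe sets, 91 from 42 genes passed a filter that dropped the dimmest 40% of the array's probe sets, by mean. The remaining 19 were not tested. They are given by their range, some also by their values and 1 of them also by a fit without the filter. Kcnh5, Kcnj2 and Kcnn3 had no probe set above the filter.

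The study put total RNA of the hippocampus on 1 array for each of 6 samples, 3 labelled wild-type mouse and 3 labelled inhibitor-1 knock-out mouse. The labels give no strain, age, sex, treatment or targeting construct, and do not say whether the arrays came from separate animals, so p-values rest on the spread among these samples alone, and part of that spread may be technical. The question is which RNAs are at another level when the hippocampus lacks inhibitor-1, a protein that blocks protein phosphatase 1 once protein kinase A has phosphorylated it. Values are intensities on a linear scale, and the probe set of a gene cannot be set against that of another gene as a level.

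Potassium channels let potassium leave the cell and so end action potentials, hold the resting potential and set how readily a neuron fires. In hippocampal pyramidal cells, subunits of the Shal family carry the A-type current that damps dendritic excitation, the M current and the small conductance channels restrain repeated firing, and G protein-gated inward rectifiers carry slow inhibition. Many of these channels are regulated by phosphorylation, which acts on the protein and is not measured by an RNA array.

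The targeted gene was checked first. Ppp1r1a, which encodes inhibitor-1, had intensities of 9061, 8370.3 and 10345 in wild type and 272, 249 and 347 in knockout at probe set 1422605_at, a log2 change of -4.93 (SE 0.18; adjusted p = 3.58e-07 in limma, lower in knockout). All 6 pyramidal neuron, 5 dentate granule neuron and 6 interneuron markers listed passed the filter, so none of these defining markers of the labelled tissue was absent. The same held for all 9 choroid plexus, 7 meningeal, 6 microglial and 6 endothelial and mural cell markers, so passing the filter does not by itself identify the tissue. Arrays correlated on average at 0.93 to 0.933 within a group and at 0.928 to 0.935 between groups, so genotype did not set the arrays apart as a whole. Median intensity was lowest on replicate 1, at 574 in wild type and 542 in knockout.

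No potassium channel subunit passed the test. Of the 91 probe sets tested, 0 were called higher and 0 lower with limma at an adjusted p under 0.05, where 0.0111% of all 26999 probe sets tested were called, each of them lower in knockout (0% higher, 0.0111% lower). The lowest adjusted p among the members was 0.988. At an unadjusted p under 0.05, 3 member probe sets were higher and 1 was lower in knockout, which is 4.4% of 91 beside 4.38% of all probe sets tested (2.17% higher, 2.21% lower). The values of the groups did not overlap for 9 member probe sets, 5 higher and 4 lower, or 9.89% beside 9.89% of all tested (4.97% higher, 4.91% lower). With all 6 arrays the share of members past either limit was at the background. In bulk RNA, fewer cells of a type and less RNA per cell cannot be told apart. Leaving out 1 array moved these counts and the share over all probe sets. Without wild type replicate 1, 1 member probe set was higher and 2 were lower (3.3%, beside 4.56% of all). Without wild type replicate 2 these were 2 and 3 (5.49%, beside 3.27%), and without wild type replicate 3 they were 4 and 3 (7.69%, beside 3.74%). Without knockout replicate 1 the counts were 3 and 10 (14.3%, beside 10.8%), without knockout replicate 2 they were 2 and 1 (3.3%, beside 3.27%), and without knockout replicate 3 they were 2 and 4 (6.59%, beside 3.08%). The member share lay above that of all probe sets when wild type replicate 2 or 3, or knockout replicate 1 or 3, was dropped, and below it when wild type replicate 1 was; these shares were not tested against each other.

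The changes were small across the family. Of 91 fitted log2 changes, 36 lay above 0 and 55 below, with a median of -0.03, beside a median of 0.004 over all probe sets tested, of which 50.9% lay above 0 (39.6% of members). The median ran from -0.07 without knockout replicate 1 to 0.00063 without knockout replicate 2. The standard error had a median of 0.144 over the members and 0.177 over all probe sets tested. The 95% interval of the change lay within a 1.5-fold difference in either direction for 60 of the 91 (65.9%, beside 54.8% of all tested), and within 2-fold for 77 (84.6%, beside 83.1%). At least 1 probe set of 32 of the 42 genes had an interval within 1.5-fold. The other 10 genes, for which a larger difference lies within every interval, were Kcna4, Kcnd1, Kcns2, Kcns3, Kcnh7, Kcnj4, Kcnj6, Kcnk3, Kcnk10 and Kcnn1. These limits of 1.5-fold and 2-fold were chosen after the data were seen. With 1 probe set for each gene, 19 of the 42 genes had a change above 0 and 23 below. Of these member genes 0 were called, beside 2 of all 12493 genes tested, each lower in knockout. At an unadjusted p under 0.05 in limma there were 2 member genes. Neither the share at that limit nor the share above 0 was computed over all genes, so these counts have no background beside them.

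**Figure D1:**
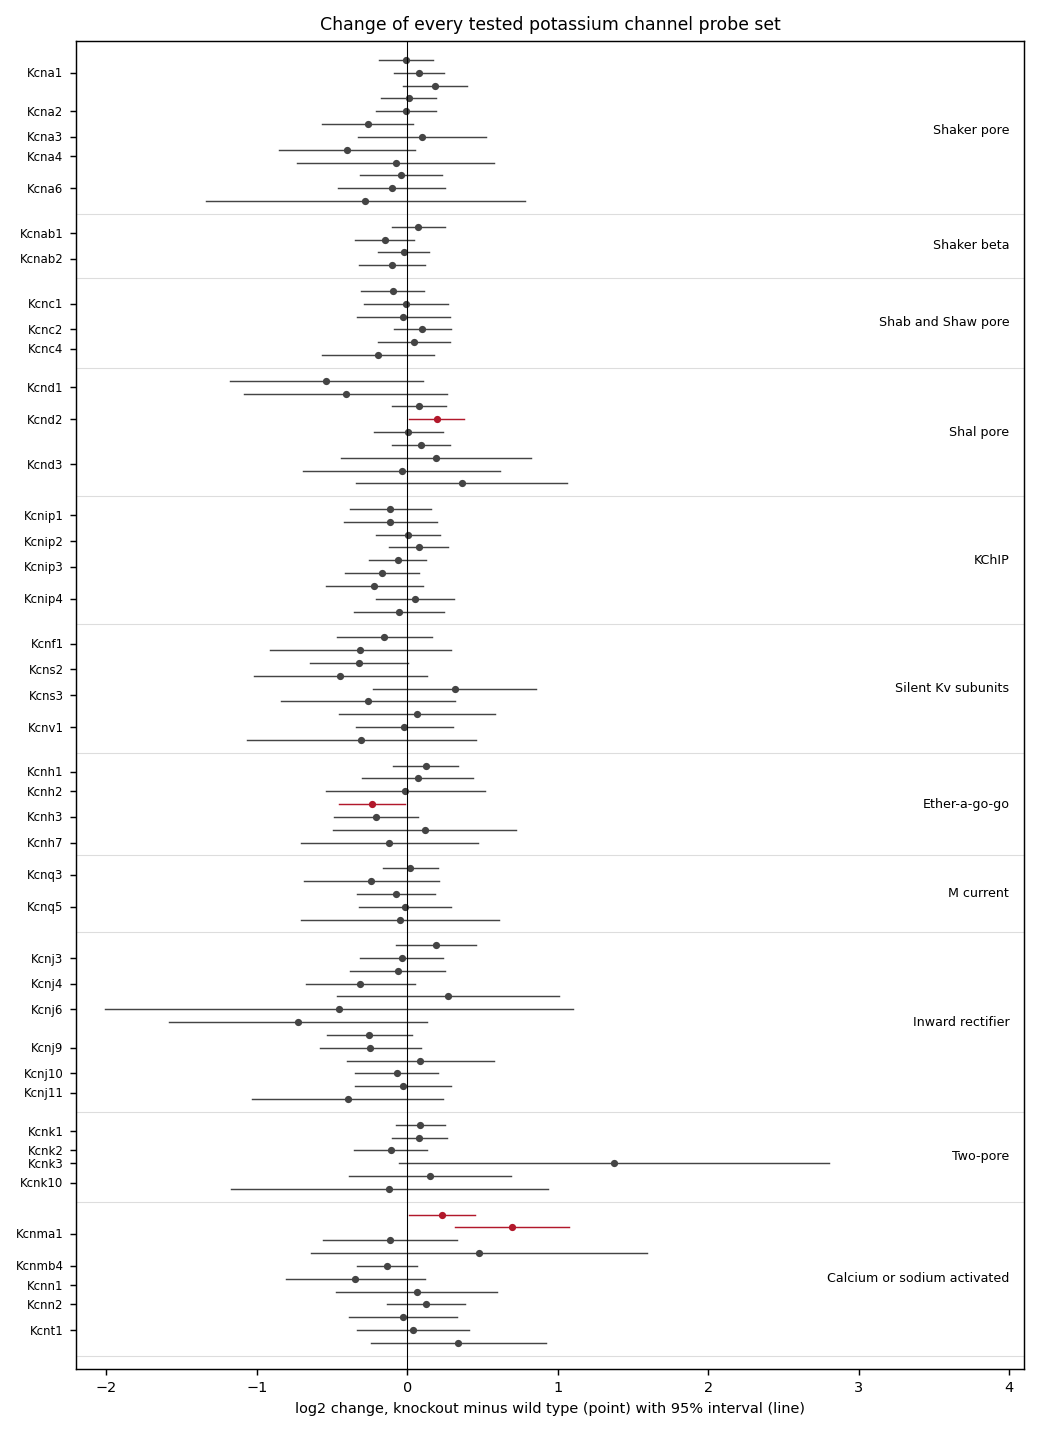
Log2 change (knockout minus wild type, x axis) with its 95% interval for each of the 91 tested probe sets, grouped by gene and class (y axis); red marks the 4 probe sets at an unadjusted p under 0.05. Most intervals cross 0, and the widest belong to Kcnj6 and Kcnk3.

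Among channels opened by calcium or sodium, a Kcnma1 probe set had the lowest p of any member probe set. Kcnma1 encodes the pore of the BK channel, which opens with calcium and voltage together and shortens the action potential. At probe set 1424848_at its intensity was 1249.8, 1174 and 1104 in wild type and 1683, 2089 and 1998 in knockout, so every knockout array lay above every wild-type array. The log2 change was 0.70 (SE 0.17, 95% interval 0.32 to 1.08, limma unadjusted p = 0.00187, adjusted p = 0.988). Over the alternatives run, its adjusted p was 0.194 to 1 and its log2 change 0.64 to 0.83. The lowest came without replicate 1 of both groups (adjusted p = 0.194) and without knockout replicate 1 (adjusted p = 0.205).

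The other probe sets of Kcnma1 did not all follow. Probe set 1425987_a_at had intensities of 7471, 8664 and 9762 in wild type and 10259, 9908 and 10084 in knockout, also without overlap, with a log2 change of 0.23 (SE 0.10, limma unadjusted p = 0.041). Its change was 0.13 without wild type replicate 1, the lowest of its group, and 0.14 when choroid plexus marker level entered as a covariate. Probe set 1428948_at had 1382, 1416 and 1488 in wild type and 1037, 1361 and 1618 in knockout, with knockout values on both sides of wild type and a log2 change of -0.12 (95% interval -0.56 to 0.33). Probe set 1440728_at had 632, 1182 and 1541 in wild type and 547, 2241 and 2551 in knockout, and here replicate 1 was the lowest of both groups, the change being 0.48 (95% interval -0.64 to 1.59). The probe set below the filter, 1457018_at, had 118, 352 and 412 in wild type and 127, 220.5 and 379 in knockout, again with replicate 1 lowest in both groups.

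The probe sets of Kcnma1 were then compared within each array. The log2 ratio of 1424848_at over 1428948_at was -0.14, -0.27 and -0.42 in wild type and 0.69, 0.61 and 0.30 in knockout, a difference of 0.81 without overlap (two-sided exact permutation p = 0.1, the smallest that 3 against 3 arrays can give). The ratio over 1425987_a_at differed by 0.47 (exact permutation p = 0.2) and that over 1440728_at by 0.22 (exact permutation p = 0.7). The 3 ratios were computed after the values of Kcnma1 had been seen, with 1424848_at taken because it had the lowest p on these same arrays. Their p-values therefore cannot decide whether the probe sets differ. The files used here do not say which transcript forms or exons each probe set covers. With the mean of its 4 tested probe sets, Kcnma1 had a log2 change of 0.32 (SE 0.19, limma unadjusted p = 0.117).

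**Figure D2:**
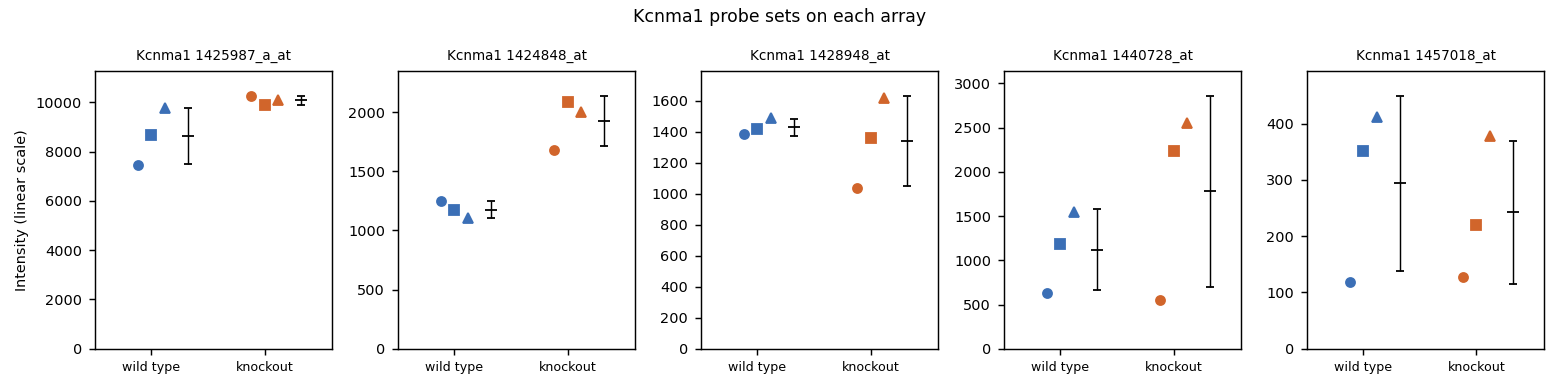
Intensity (linear, y axis from 0) of the 5 Kcnma1 probe sets on each array; circles, squares and triangles are replicates 1, 2 and 3, and bars beside them give the mean ± SD (n = 3). The groups separate at 1424848_at (1104 to 1249.8 against 1683 to 2089) and overlap at 1428948_at, 1440728_at and 1457018_at.

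The promoter of Kcnma1 is shown because a probe set of this gene had the lowest p of any member probe set. It spans 250 bases before to 50 bases after the start that RefSeq gives on build GRCm38.p6, minus strand (chr14:24004156-24004455), printed 5′ to 3′. The cAMP response element (CRE) that CREB binds, TGACGTCA, was searched on both strands with its core, TGACG, which overlaps it, since protein phosphatase 1 removes phosphate from CREB. Capitals mark the core on either strand, and this window holds 0.
Kcnma1: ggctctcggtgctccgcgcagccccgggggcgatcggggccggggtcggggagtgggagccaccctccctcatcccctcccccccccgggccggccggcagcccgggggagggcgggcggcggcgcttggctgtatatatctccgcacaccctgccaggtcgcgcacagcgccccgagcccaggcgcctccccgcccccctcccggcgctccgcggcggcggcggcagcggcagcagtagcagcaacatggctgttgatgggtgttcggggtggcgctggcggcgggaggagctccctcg
Of the 47 members, 35 had a promoter in the RefSeq table. The full element was in 0 of these 35 and in 2.03% of 27025 genes with a promoter, and the core was in 8 (22.9%) beside 23% of all. Those 8 were Kcna6, Kcnab2, Kcnc1, Kcnc4, Kcnh5, Kcnj4, Kcnj6 and Kcnn1. A match describes letters in a window and is no evidence of binding.

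The partners of Kcnma1 and the other channels of this class gave smaller values. Kcnmb4, the neuronal beta subunit that slows BK channels, had intensities of 16374, 13568 and 16049 in wild type and 14976, 13153 and 13689 in knockout. The groups overlapped, and the log2 change was -0.13 (SE 0.09). Kcnn2, a small conductance channel of the afterhyperpolarisation, had 6553, 5839 and 8123 in wild type and 7043, 7511 and 7630.0 in knockout, the knockout values lying within the wild-type range (log2 change 0.13, SE 0.12). Kcnn1, of the same family, had 1065, 1082 and 1098 in wild type and 814, 789 and 950.3 in knockout at probe set 1449536_at, every knockout value being lower, with a log2 change of -0.34 (SE 0.21, limma unadjusted p = 0.129). Its other probe set had a log2 change of 0.06, with overlap. The probe set of Kcnn3 stayed between 34.5 and 133, below the filter. Kcnt1, a sodium-activated channel, had 3 tested probe sets with log2 changes of -0.03, 0.04 and 0.34. Over the class, 7 of 11 tested probe sets had a change above 0 (median 0.06).

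Shaker-type channels are low-threshold delayed rectifiers and A-type channels of axons and terminals. Kcna1 had at probe set 1455785_at intensities of 25786, 24581 and 26500.2 in wild type and 28252, 25343 and 22972 in knockout, and the groups overlapped (log2 change -0.01, SE 0.08, 95% interval -0.19 to 0.17). A second Kcna1 probe set, 1437230_at, had 9292, 7607 and 9379 in wild type and 9641, 10247 and 9889.6 in knockout without overlap (log2 change 0.19, SE 0.10), and 1417416_at had a log2 change of 0.08. Kcna4, an A-type pore subunit, had the lowest p of the class at 1422255_at. Its intensities were 1545, 2031 and 2408 in wild type and 1291, 1388 and 1816 in knockout, the ranges overlapping, with a log2 change of -0.40 (SE 0.21, limma unadjusted p = 0.077). Its other probe set had a log2 change of -0.08 (SE 0.30). Kcna2, which pairs with Kcna1 in axons, had changes of 0.01, -0.01 and -0.26. At the last of these, 1422197_at, the values were 2827, 2965 and 2893 in wild type and 2188, 2817 and 2269 in knockout and did not overlap. The single probe set of Kcna3 had a log2 change of 0.10 and those of Kcna6 of -0.28 to -0.04. Over the class, 4 of 12 changes lay above 0 (median -0.03).

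The beta subunits Kcnab1 and Kcnab2 bind Shaker pores inside the cell and alter their inactivation and transport. Kcnab2 had intensities of 34707, 29387 and 34552 in wild type and 33286, 31524 and 31994 in knockout, with a log2 change of -0.02 (95% interval -0.19 to 0.15), so a difference of 1.5-fold lay outside the interval. Its other probe set had a log2 change of -0.10 (SE 0.10). Kcnab1 had 8119, 8610.4 and 7937 in wild type and 8039.7, 7188 and 7034 in knockout at 1454043_a_at, with a slight overlap (log2 change -0.15, SE 0.09, limma unadjusted p = 0.12), and 0.07 at its other probe set. The promoters of Kcna6 (minus strand, chr6:126740625-126740924) and of 1 of the 3 Kcnab2 starts (minus strand, chr4:152477500-152477799), GRCm38.p6 in RefSeq, are shown as examples that hold the CRE core, in capitals as its reverse complement.
Kcna6: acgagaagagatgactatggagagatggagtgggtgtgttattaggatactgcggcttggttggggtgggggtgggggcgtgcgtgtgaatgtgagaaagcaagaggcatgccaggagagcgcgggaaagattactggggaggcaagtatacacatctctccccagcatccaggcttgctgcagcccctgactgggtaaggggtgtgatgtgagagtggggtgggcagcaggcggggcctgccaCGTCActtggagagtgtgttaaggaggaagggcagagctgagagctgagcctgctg
Kcnab2: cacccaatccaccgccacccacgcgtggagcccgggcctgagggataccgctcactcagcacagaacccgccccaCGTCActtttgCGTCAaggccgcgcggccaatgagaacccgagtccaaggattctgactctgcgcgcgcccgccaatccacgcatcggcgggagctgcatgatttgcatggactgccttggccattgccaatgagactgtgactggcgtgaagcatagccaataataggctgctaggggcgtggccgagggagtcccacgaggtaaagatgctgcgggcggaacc
The Kcna6 window holds 1 core and this Kcnab2 window 2. The promoters of the other 2 Kcnab2 starts hold 0.

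Shaw channels support fast spiking, above all in interneurons. Kcnc2 had intensities of 7682, 7643 and 7465 in wild type and 7741, 7877 and 8871 in knockout. Every knockout array lay above every wild-type array, by little, with a log2 change of 0.10 (SE 0.09, 95% interval -0.09 to 0.29, limma unadjusted p = 0.27). The 3 tested probe sets of Kcnc1 had a log2 change of -0.10 to -0.01, and those of Kcnc4 of 0.04 and -0.19. Summed over the class, 2 of 6 changes lay above 0. Interneuron markers, which share cells with these channels, had a median log2 change of -0.13, 5 of 6 below 0, and their mean log2 level ran from 13.38 to 13.54 over wild-type and from 13.33 to 13.49 over knockout arrays; their part in the values of Shaw channels was not tested.

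Shal pores carry the somatodendritic A-type current, and Kcnd2 is the main Shal subunit of CA1 pyramidal cells. At probe set 1450773_at Kcnd2 had intensities of 7701, 7419.6 and 7739 in wild type and 9276, 8472 and 8445 in knockout, with all knockout values above all wild-type values and a log2 change of 0.19 (SE 0.08, 95% interval 0.01 to 0.38, limma unadjusted p = 0.0379). At 1422835_at it had 13474, 12143 and 11804 in wild type and 13755, 12477 and 13165 in knockout, with overlap and a change of 0.08 (SE 0.08). The third tested probe set of Kcnd2 had a log2 change of 0.01 (SE 0.10); all 3 lay above 0. Kcnd3, which is found in interneurons among other cells, had changes of -0.04 to 0.36 at 4 probe sets. Kcnd1 had changes of -0.54 (SE 0.29) and -0.41 (SE 0.31), and its knockout values of 697, 445 and 912 at 1455514_at overlapped with wild-type values of 1052, 846 and 999. Above 0 lay 6 of the 9 changes of Shal pores (median 0.08).

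KChIPs are calcium-binding proteins that raise the surface level of Shal channels. Kcnip2 had intensities of 23328, 19693 and 23263 in wild type and 22545, 24343 and 19552 in knockout at 1436275_at, and the log2 change was 0.0019 (95% interval -0.21 to 0.21). Its second probe set, 1425870_a_at, had a log2 change of 0.07 (SE 0.09). Another, 1421783_a_at, lay below the filter and had 403, 397 and 236 in wild type and 48.7, 105 and 30.6 in knockout. These groups did not overlap, and in a fit without the filter the log2 change was -2.30 (SE 0.67, limma unadjusted p = 0.00476, adjusted p = 0.986). That probe set was named with its values known. Kcnip3, also known as the transcriptional repressor DREAM, had 5891, 6328 and 5352 in wild type and 5698, 4604 and 5367 in knockout at 1449129_a_at (log2 change -0.17, SE 0.11, limma unadjusted p = 0.161) and a change of -0.06 at its other probe set. Kcnip1 had a log2 change of -0.11 at both tested probe sets, and Kcnip4 of -0.22 to 0.05 at 3. Of the 9 KChIP changes, 3 lay above 0, with a median of -0.06.

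Among the proteins that dress Shal channels, Dpp6 had intensities of 11561, 12802 and 13644 in wild type and 12675, 10821 and 10109.7 in knockout (log2 change -0.18, SE 0.10), and Dpp10 had a log2 change of -0.09 (SE 0.17). Both overlapped between groups.

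Silent Kv subunits form no channel alone and modify Shab pores when they join them. Kcns2 had intensities of 4175, 4589 and 5047 in wild type and 4588, 3468 and 3113 in knockout at 1457325_at. Knockout replicate 1 lay within the wild-type range, the other two below it, and the log2 change was -0.32 (SE 0.15, limma unadjusted p = 0.0519). Its other probe set, 1421342_at, had 1096, 1028 and 1163 in wild type and 600.3, 748 and 1133 in knockout and a change of -0.45 (SE 0.26). With the mean of both, Kcns2 had the lowest p among the member genes (log2 change -0.38, SE 0.13, limma unadjusted p = 0.011, adjusted p = 0.921). Kcnf1 had changes of -0.15 and -0.31, Kcnv1 of -0.31 to 0.06, and Kcns3 of 0.32 and -0.26. In all, 7 of 9 changes of silent subunits were below 0 (median -0.26), with 0 at an unadjusted p under 0.05.

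Ether-a-go-go channels set slow voltage-gated currents, and Kcnh3 is a forebrain member of the family. At 1445805_x_at, Kcnh3 had intensities of 5842, 5299 and 5071 in wild type and 4719, 4638 and 4379 in knockout. All knockout values lay below all wild-type values, with a log2 change of -0.24 (SE 0.10, 95% interval -0.46 to -0.02, limma unadjusted p = 0.0371). The suffix of this probe set marks probes that may bind other transcripts too. Probe set 1459107_at had 5461, 4489 and 5609.6 in wild type and 5129, 4310.1 and 4026 in knockout, overlapping, with a change of -0.21 (SE 0.13), and 1421619_at had a log2 change of 0.12 (SE 0.28). Kcnh1 had 5765, 5093 and 5570.2 in wild type and 6447, 5744 and 5702 in knockout at 1435994_at (log2 change 0.12, SE 0.10) and 0.07 at its other probe set. Kcnh2 and Kcnh7 had log2 changes of -0.01 and -0.12, in that order. Kcnh5 stayed below the filter, at 216, 292 and 296 in wild type and 468, 111 and 56.0 in knockout.

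Kcnq3 and Kcnq5 form the M current, which acetylcholine shuts off. Kcnq3 had intensities of 19941, 18689.9 and 21732 in wild type and 21926, 18803 and 20478 in knockout at 1435957_at, fully overlapping, with a log2 change of 0.02 (95% interval -0.16 to 0.20). At 1458421_at it had 1311, 1282 and 1191 in wild type and 1268, 910.3 and 1049.7 in knockout (log2 change -0.24, SE 0.20). The 3 probe sets of Kcnq5 had a log2 change of -0.08 to -0.02. For both genes at least 1 interval lay within 1.5-fold.

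Inward rectifiers hold the resting potential, and Kcnj3, Kcnj6 and Kcnj9 encode the G protein-gated (GIRK) channels behind slow inhibition by GABA-B and adenosine receptors. Kcnj3 had 5297, 5349.9 and 5457 in wild type and 7139, 5134 and 6270.1 in knockout at 1455374_at, with knockout replicate 2 below the wild-type values and the other two above (log2 change 0.19, SE 0.12). Its other tested probe sets had a log2 change of -0.04 and -0.06. Kcnj9 had 4254, 4387 and 4151 in wild type and 4266, 3104 and 3454 in knockout at 1428602_at, where knockout replicates 2 and 3 lay below all wild-type arrays and replicate 1 did not. Its log2 change was -0.25 (SE 0.13, limma unadjusted p = 0.0761), beside -0.25 and 0.09 at its other probe sets. Kcnj6 had changes of 0.27, -0.45 and -0.73, with standard errors of 0.34 to 0.71. At 1421581_at its values, 558, 570.5 and 357 in wild type and 355, 329 and 201 in knockout, did not overlap, the nearest being 357 and 355. The mean log2 level of this probe set was 8.97 in wild type and 8.24 in knockout, the latter below the filter level of 8.44. It passed the filter only through its wild-type level, so its change is no support for a difference. It is counted among the member probe sets without overlap.

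Kcnj10, the inward rectifier of astrocytes that clears potassium, had 4617, 4318 and 3613 in wild type and 4300.2, 3986 and 3619 in knockout and a log2 change of -0.07 (95% interval -0.35 to 0.20). Astrocyte markers had a median log2 change of 0.11, 4 of 7 above 0. Kcnj4 had 3889.6, 2547 and 3344 in wild type and 2889, 2531 and 2362 in knockout (log2 change -0.31, SE 0.16). Kcnj11, the pore of the ATP-sensitive channel, had a log2 change of -0.03 and -0.40, while its partner Abcc8, the sulfonylurea receptor, had 1945, 2147 and 2020.0 in wild type and 2556, 2556 and 2702 in knockout, without overlap (log2 change 0.35, SE 0.13, limma unadjusted p = 0.0211, adjusted p = 0.988). The probe set of Kcnj2 lay between 30.7 and 173, below the filter. Over the inward rectifiers, 10 of 13 changes were below 0 (median -0.07).

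Tandem-pore channels leak potassium at rest. Kcnk1 had 22645, 22817 and 22663 in wild type and 26537, 23467 and 22565 in knockout at 1448690_at. The wild-type arrays were nearly alike, knockout replicate 1 was the highest, and the log2 change was 0.09 (SE 0.08, 95% interval -0.08 to 0.25). Its other probe set had a log2 change of 0.08. Kcnk3, an acid-sensitive leak channel, had the largest fitted change of any member at 1425341_at, with intensities of 183, 907 and 85.9 in wild type and 603, 673 and 746 in knockout. Wild type replicate 2 was above all knockout arrays and replicates 1 and 3 far below, so the change of 1.37 carried an SE of 0.65 (limma unadjusted p = 0.0584). The mean log2 level of this probe set was 8.05 in wild type, below the filter level of 8.44, and 9.42 in knockout. It therefore passed the filter only through its knockout level, and its change and p-value are no support for a difference. The other probe sets of Kcnk3 were below the filter, and their groups overlapped. At 1426058_a_at the values were 331, 101 and 111 in wild type and 469, 121 and 149 in knockout. At 1425342_a_at they were 164, 99.4 and 47.3 in wild type and 55.3, 25.2 and 22.5 in knockout, so its mean went the other way. Kcnk2, opened by stretch and lipids, had a log2 change of -0.11 (SE 0.11), and Kcnk10 of 0.15 and -0.12.

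Leaving out 1 array or both replicates 1, or adding the choroid plexus covariate, moved many of these values by over 1.5 times. For Kcnk3 1425341_at the log2 change was 0.68 without wild type replicate 3 and 2.27 without wild type replicate 2. For Kcna4 1422255_at it was -0.25 without wild type replicate 3 and -0.63 with the choroid plexus covariate. Kcnj3 1455374_at had 0.08 without knockout replicate 1, 0.32 without knockout replicate 2 and 0.07 without both replicates 1.

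Kcns2 1457325_at had a log2 change of -0.20 without knockout replicate 3 and -0.55 without both replicates 1. For Kcnj9 1428602_at the values were -0.38 without knockout replicate 1 and -0.15 without knockout replicate 2. Kcnip3 1449129_a_at had -0.11 when wild type replicate 2 was dropped and -0.08 when knockout replicate 2 was, and Kcnq3 1458421_at had -0.13 without knockout replicate 2. Smaller log2 changes moved as well: Kcnc2 1455258_at to 0.04 without knockout replicate 3, Kcnh1 1435994_at to 0.07 without wild type replicate 2 or knockout replicate 1, and Kcnmb4 1449471_at to -0.08 without wild type replicate 1 and -0.22 without wild type replicate 2. Kcnk1 1448690_at moved to 0.02 without knockout replicate 1 and 0.14 without knockout replicate 3, and Kcnd2 1422835_at to 0.04 without wild type replicate 3 or knockout replicate 1 and to 0.13 without wild type replicate 1. Kcna1 1455785_at, Kcnab2 1416956_at, Kcnip2 1436275_at and Kcnq3 1435957_at stayed between -0.10 and 0.09 whichever array was left out. Kcnma1 1424848_at, Kcnd2 1450773_at, Kcnh3 1445805_x_at and Kcnab1 1454043_a_at moved by less than 1.5 times in every alternative run.

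**Figure D3:**
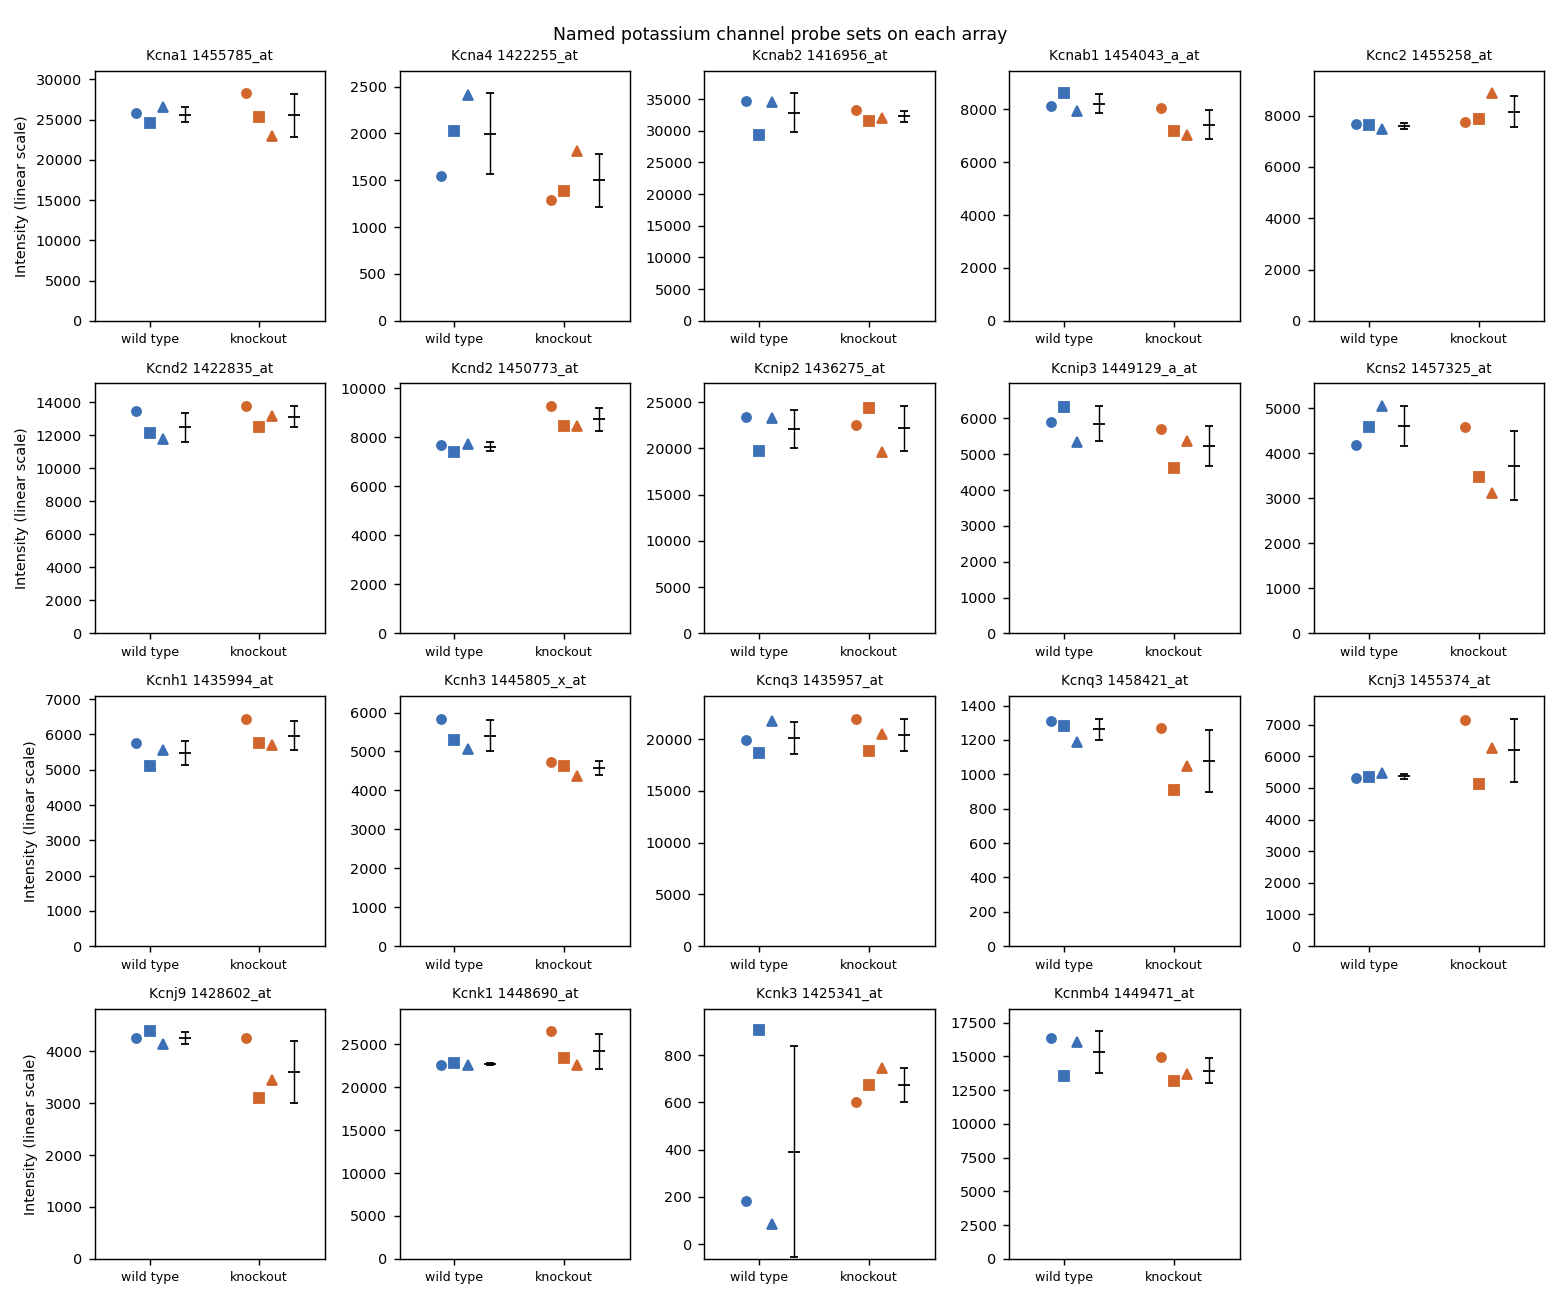
Intensity (linear, y axis) of 19 named probe sets other than those of Kcnma1 on each array; circles, squares and triangles are replicates 1, 2 and 3, and bars give the mean ± SD (n = 3). Wild-type and knockout values lie apart at Kcnd2 1450773_at, Kcnh3 1445805_x_at and Kcnc2 1455258_at and overlap at the other 16.

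Of the 32 genes with several tested probe sets, 4 had every change above 0 (Kcnd2, Kcnip2, Kcnh1 and Kcnk1), 11 had every change below 0 and 17 had both signs. The 19 probe sets below the filter had intensities of 14.6 to 573. The share without overlap over all probe sets below the filter was not computed, so no background stands beside the next count. The groups did not overlap for 3 of the 19, all lower in knockout and named with their values known. These were Kcnip2 1421783_a_at, given above, Kcna2 1457911_at with 342, 311 and 495 in wild type and 89.1, 308 and 85.3 in knockout, and Kcnj9 1433029_at with 334, 194 and 524 in wild type and 188, 186 and 64.4 in knockout.

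Position on chromosome 15 was described because Ppp1r1a lies there. Of the members tested, Kcns2, Kcnv1, Kcnq3, Kcnj4 and Kcnh3 are on this chromosome. By RefSeq gene order Kcnh3 is 71 measured genes from Ppp1r1a, Kcnj4 236, Kcnq3 344, Kcnv1 384 and Kcns2 418. Their 11 tested probe sets had a median log2 change of -0.24, with 8 below 0, beside a median of -0.03 and 47 of 80 below 0 for the members elsewhere. This comparison was not tested.

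The arrays differed in a way that ran across both groups. The median deviation of the 91 member probe sets from their mean over all arrays, on the log2 scale, was 0.06, 0.03 and -0.01 in wild type replicates 1 to 3 and 0.05, -0.06 and -0.02 in knockout. Over all probe sets tested this deviation was -0.01 to 0.02 on every array. Replicate 1 was the highest array of both groups for 24 of the 91 (26.4%), from 19 genes that include Kcnab2, Kcnk1, Kcnj10 and Kcnq3, beside 12.3% of all probe sets tested. Replicate 3 was the lowest of both groups for 20 (22%), beside 10.9%. The labels do not say that a shared number means a shared origin.

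Choroid plexus and meningeal marker levels were also unlike between these arrays. All 9 choroid plexus markers passed the filter, 8 with a change above 0 (median log2 change 0.60), and their mean log2 level was 11.63, 12.76 and 12.82 in wild type and 12.42, 13.28 and 13.20 in knockout, lowest in replicate 1 of each group. None was at 0. All 7 meningeal markers had a change above 0 (median 0.46), with mean log2 levels of 11.21, 11.32 and 11.10 on the wild-type and 11.31, 11.82 and 11.66 on the knockout arrays. Pyramidal neuron markers had mean log2 levels of 14.14, 14.11 and 14.18 on the wild-type and 14.10, 13.96 and 14.00 on the knockout arrays (5 of 6 below 0, median -0.14). The part of these levels in the member values was not tested. Median log2 changes were 0.02 for dentate granule neuron, -0.13 for oligodendrocyte, 0.06 for microglia and 0.07 for endothelial and mural cell markers.

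**Figure D4:**
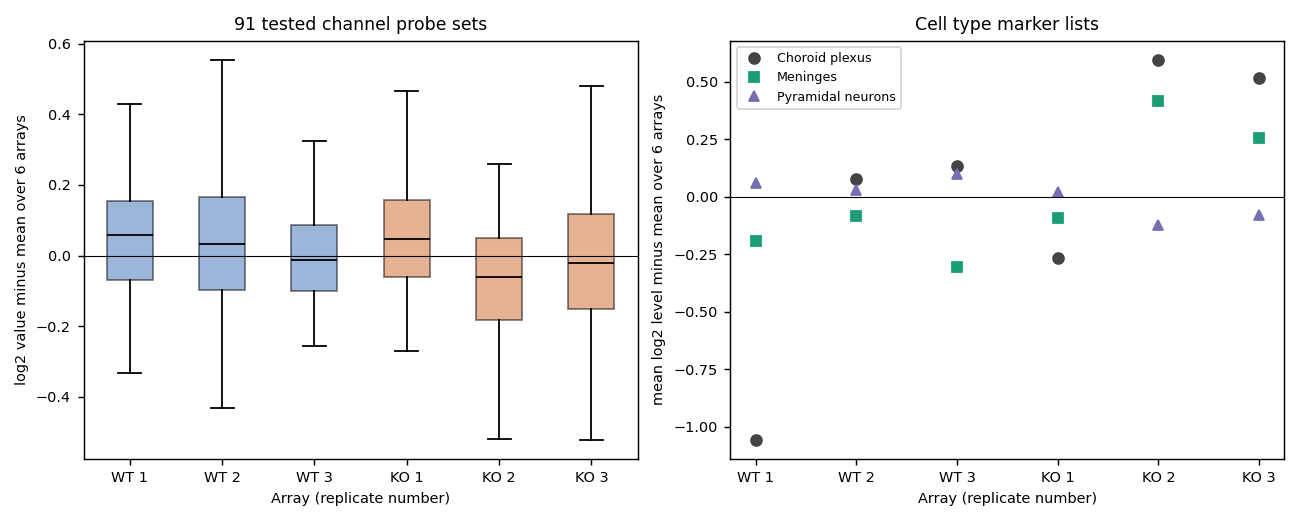
Left, deviation of the 91 tested member probe sets from their mean over 6 arrays (log2, y axis) on each array, as boxes (median and quartiles) with whiskers; right, mean log2 level of 3 marker lists minus its mean over arrays. Replicate 1 of each group has the highest member median of its group (0.06 and 0.05) and the lowest choroid plexus level.

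Other potassium channel genes, not among the members, gave a like picture. Of 42 listed, 33 were on the array under 1 symbol and 19 were tested, 11 with a change above 0 and 8 below (median 0.03), and 0 passed. The groups did not overlap for 2 higher and 1 lower of the 19, beside 9.89% of all probe sets tested. Kcnj13, a potassium channel of the choroid plexus, was the only 1 of the 19 at an unadjusted p under 0.05, beside 4.38% of all. It had 3904, 8900.3 and 9424 in wild type and 7429, 15660.0 and 13967 in knockout (log2 change 0.77, SE 0.32, limma unadjusted p = 0.037), following the choroid plexus level from array to array, of which it is itself a marker. Kcne2, a beta subunit that is also a choroid plexus marker, had 891, 3087 and 2623 in wild type and 2031, 4859 and 3365 in knockout (log2 change 0.73, SE 0.42). Of 32 genes whose proteins place or tune these channels, 24 were tested, 14 above 0 and 10 below (median 0.04), and 0 passed. Abcc8 was the 1 of the 24 at an unadjusted p under 0.05, beside the same 4.38% of all. The ankyrin Ank3, which anchors M channels at the axon initial segment, had a log2 change of 0.04 (SE 0.06). Dlg4 (PSD-95), a scaffold that binds Shaker and inward rectifier channels, had -0.15 (SE 0.09).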

How the data were processed

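The deposited table has 1 column of linear intensity values for each array. Which program produced the intensities is not stated in the labels or the file. Each array's mean, trimmed of 2% at both ends, was 2500.0, so the authors' deposited intensity values had been scaled to one level. Of 45101 probe sets the platform annotation gave 1 symbol to 34958, several to 932 and none to 9211; 34754 of the first were found by gene ID in RefSeq (GRCm38.p6) and 0 symbols changed.

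Values were taken as log2(intensity + 16), so fold changes of dim probe sets are understated. The 64 control probe sets and the 40% with the lowest mean (log2 level 8.44) were left out. Group was the only term in limma 3.58.1 (R 4.3.3; two-sided, eBayes with a trend on intensity), fitted on all 26999 probe sets, with Benjamini-Hochberg adjustment over all of them and a threshold of 0.05. The fit was tested on simulated data. Precision is limited by how few arrays there are.

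Members, classes and lists were chosen with earlier results of these data known. Given array by array are the targeted gene and, in each class, the probe set with the highest mean, those at an unadjusted p under 0.05 or else the one with the smallest p, with the other probe sets of those genes beside them; partner genes are named at an unadjusted p under 0.05. Kcna1 1437230_at, Kcna2 1422197_at and 1457911_at, Kcnj6 1421581_at, Kcnn1 1449536_at, Kcnip2 1421783_a_at, Kcnj9 1433029_at, Kcnd1, Kcnn2, Kcnh5, Kcnj4, Kcnj10, Dpp6, Dpp10, Kcne2, Ank3 and Dlg4 were chosen after their values were seen. Promoter sequences are RefSeq's.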

Additional observations from a re-analysis of the deposited data

How the results depend on the processing

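No member probe set or gene was called, higher or lower, in any of the 18 alternatives, nor when a gene's probe sets were averaged. Dropping both replicates 1 and adding choroid plexus level as a covariate were chosen after seeing the data. The count of member probe sets at an unadjusted p under 0.05 moved with the setting, and the cause was not tested. Lower ones (1 in the main setting) numbered 3 unfiltered, 2 after quantile normalization, 0 after median centring, 2 with no intensity trend, 2 with robust empirical Bayes, 8 under array weights, 3 under the replicate block, 2 given the covariate, 6 when both replicates 1 were dropped, and 1 to 10 when 1 array was. Higher ones (3 in the main setting) numbered 2 after median centring, 1 with no intensity trend, 4 under array weights and 2 given the covariate. They numbered 5 when both replicates 1 were dropped, and 1 to 4 when 1 array was. Among all probe sets, lower calls (3 in the main setting) numbered 4 after quantile normalization, 4 after median centring and 4 with robust empirical Bayes. They numbered 4 under array weights, 4 under the replicate block, 4 given the covariate and 1 with no intensity trend. There were 7 when both replicates 1 were dropped, and 3 to 4 when 1 array was. Higher calls (0 in the main setting) numbered 7 under the replicate block, 1 given the covariate, 7 when both replicates 1 were dropped, and 0 to 2 when 1 array was, the 2 arising when knockout replicate 1 was dropped. The share of all probe sets at an unadjusted p under 0.05 (4.38% in the main setting) was 4.63% unfiltered and 4.95% after quantile normalization. It was 2.79% after median centring, 4.47% with no intensity trend and 4.36% with robust empirical Bayes. Under array weights it was 7.97%, under the replicate block 5.46%, given the covariate 5.87% and without both replicates 1 10.5%. In these settings 91 member probe sets were tested, or 110 when unfiltered. The labels do not say whether same-numbered samples share more than a number. Their deviations from the group means had r of 0.241, 0.0542 and 0.0998. The value for replicate 1 was the highest of any pair across the groups, while wild type replicate 3 was closest to knockout replicate 2 (0.11). The median member change lay between -0.07 and 0.01, turning above 0 (0.00063) without knockout replicate 2 and (0.01) given the covariate. For 21 named probe sets all 377 comparisons stayed uncalled, and in 15 of them a log2 change near 0 turned sign, for Kcna1, Kcnab2, Kcnip2 and Kcnq3.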
